A study of Mus musculus with 3 samples.

Results

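The 10 genes described here encode antioxidant and glutathione enzymes and a regulator of thioredoxin: Gstp1, Gstm1, Gstm5, Gpx4, Prdx6, Txnip, Nqo1, Hmox1, Gclm and Gsr. They were taken by symbol from the 31253 genes counted in each library, and each symbol was found in all 3 libraries. The group was chosen by its known function, with earlier results of these data known, so the counts and percentiles of its members are a description. Gstp1 was selected on its measured level, as the gene whose level in the 15-day library was known to stand apart in every cell class. Its values there are a description of the choice and support nothing.

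Glutathione is a small thiol that cells use to neutralise peroxides and reactive compounds. Gclm helps to make it, peroxidases such as Gpx4 and Prdx6 spend it on peroxides, transferases of the Gst family attach it to reactive molecules, and Gsr returns its oxidised form to the reduced one. Thioredoxin is the parallel system, which Txnip binds and inhibits, and several genes of both systems, with Nqo1 and Hmox1, are textbook targets of the transcription factor NRF2. In the brain, glial cells carry much of this defence, and the arcuate nucleus of the hypothalamus, which senses nutrients and hormones, borders the third ventricle, where tanycytes and ependymal cells line the wall.

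Single-cell RNA sequencing had been done on micropunched arcuate nucleus of male C57BL/6JRj mice aged 5 to 6 weeks, and the labels name no engineered allele. The chow group (SC) ate standard chow for 15 days from weaning. The 5-day group was moved from chow after 10 days to a diet rich in fat and sugar (HFHS, 58%), which it ate for 5 days. The 15-day group had the HFHS diet throughout the 15 days. Tissue of 6 mice was pooled into 1 library per diet and freed with collagenase/dispase and then papain, so every comparison between diets is between single libraries, and no test of diet was possible. Pooling leaves the spread between mice unmeasured.

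Levels are given as CPM, the UMIs of a gene scaled to the total UMIs of its class in a library. A UMI marks 1 captured transcript molecule. The range in parentheses is an exact 95% Poisson interval, or for a ratio an exact conditional interval. For a mean over classes it is a 95% normal approximation from the counts. Each of these covers counting error only, not the spread between cells or mice. Because counts near the 3′ end are not divided by transcript length, levels are compared between cells and libraries and not between genes.

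After filtering, 4825 (SC), 4041 (5-day) and 5157 (15-day) cells were kept, with medians of 5131, 5779 and 4130 UMIs per cell. Clusters were named from marker genes, and 10 classes with at least 100 cells in every library were compared: tanycyte-like, ependymal-like, astrocyte-like, oligodendrocyte-like, committed oligodendrocyte precursor-like (COP), oligodendrocyte precursor-like (OPC), neuron-like, microglia-like, endothelial-like and pericyte-like. Smaller macrophage-like and vascular leptomeningeal-like classes were kept for description and enter no order of classes below. The pericyte-like class also held smooth muscle markers. Its 9 pericyte markers summed to 32269.6, 33290.5 and 23803.2 CPM (SC, 5-day, 15-day) and the 9 smooth muscle markers to 13565, 12946 and 21863 CPM. The 14 microglia markers summed to 242, 207 and 1048 CPM there. The part of these markers in the pericyte-like values was not tested. In endothelial-like cells the 5 red blood cell markers summed to 26292, 26514.5 and 964 CPM, far lower at 15 days. Their part in the endothelial-like values below was not tested. A cluster of 1063 cells (373, 310 and 380 by library) with markers of both ependymal cells and tanycytes was left out of both classes by a rule set after the data were seen. The SC and 15-day libraries shared 72 barcodes, which had a median of 86486.5 UMIs in SC and 642.5 in the 15-day library. The 5-day and 15-day libraries shared 85, with medians of 77471 and 678. Kept cells with such a barcode held 9.41%, 13.1% and 0.625% of the kept UMIs of the 3 libraries, and the results below were also computed without them.

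Promoter sequence shows where letters known from antioxidant regulation lie near these genes. RefSeq start sites were listed for 7 of the 10 genes, and the 250 bases before each start were searched on both strands for TGACNNNGC, the core of the antioxidant response element, TGAGTCA, the AP-1 site, and CACGTG, an E-box of the kind bound by glucose-responsive factors. The first and the second motif can overlap at a site. Of 32851 promoters of the same length, 10.2% held TGACNNNGC, 4.46% held TGAGTCA and 6.02% held CACGTG. The matches are shown 5′ to 3′ on the strand of the gene (GRCm38.p6), with the motif in capitals.
Gstp1, TGAGTCA, chr19:4037970-4037996, minus strand, motif on the same strand 74 to 68 bases before the start: tccaacgtgtTGAGTCAgcatccgggg
Gstm5, TGACNNNGC, chr3:107895802-107895830, plus strand, motif on the same strand 42 to 34 bases before the start: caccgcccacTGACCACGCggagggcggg
Gstm5, TGAGTCA, chr3:107895668-107895694, plus strand, motif on the opposite strand 176 to 170 bases before the start: ctgtgcaacaTGACTCAcgcttcccgg
Gclm, TGACNNNGC, chr3:122245413-122245441, plus strand, motif on the opposite strand 134 to 126 bases before the start: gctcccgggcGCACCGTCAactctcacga
Gstp2, TGAGTCA, chr19:4042294-4042320, minus strand, motif on the same strand 89 to 83 bases before the start: tccaacgtgtTGAGTCAgcatccgggg
Gstp1 and its neighbour Gstp2 had the same 27 bases at this site. Read on into the bases that follow, their site matches TGACNNNGC except for a G in place of its first C. That form was not searched for, so its share among all promoters is not given. In the form searched, the Gstm5 promoter held both an antioxidant core and an AP-1 site. The Gclm promoter held an antioxidant core of that form on the opposite strand. No listed promoter of Gstm1, Gpx4, Txnip or Nqo1 held any of these letters in this window. Distances count from the RefSeq start. The gene spans given below are from GENCODE M21, and for Gstp1 and Gstm5 they begin before that start. The motifs of these genes therefore lie nearer to the GENCODE start, and that of Gstp1 overlaps it. A match is a description of the letters and not of a bound factor.

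Each gene was measured in every class and library, and a size rule was used to name differences, since no test was possible. The rule asked for 100 or more UMIs in the pair of libraries and 30 CPM in the higher of them. The ratio had to reach 1.5 in either direction, with a 95% interval lying wholly beyond 0.32 on the log2 scale. In the 5-day library against SC, 66 of the 100 pairs of gene and class had enough counts, and 4 were higher and 1 was lower by the rule. Over all 52997 pairs of any gene and class considered, 0.664% were higher and 0.779% were lower. Neuron-like cells held 208 of the 352 higher pairs and 241 of the 413 lower ones, from 6868 considered in that class. The higher pairs of Gstp1 and Gstm5 at 5 days were in neuron-like cells. In the 15-day library against SC, 67 pairs were considered, of which 10 were higher and 1 was lower, against 1.69% and 2.14% of all pairs. Of those 10, 9 were Gstp1 itself, whose choice rested on that difference, and the other was Gstm5 in neuron-like cells. Over all genes, that class held 377 of the 896 higher pairs and 728 of the 1133 lower ones at 15 days, from 6881 considered. In the 15-day against the 5-day library, 69 pairs were considered, of which 9 were higher and 1 was lower, against 0.99% and 0.796% of all pairs. All 9 higher pairs were again Gstp1, whose choice rested on the 15-day level, and the lower one was Gsr in tanycyte-like cells.

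**Figure D1:**
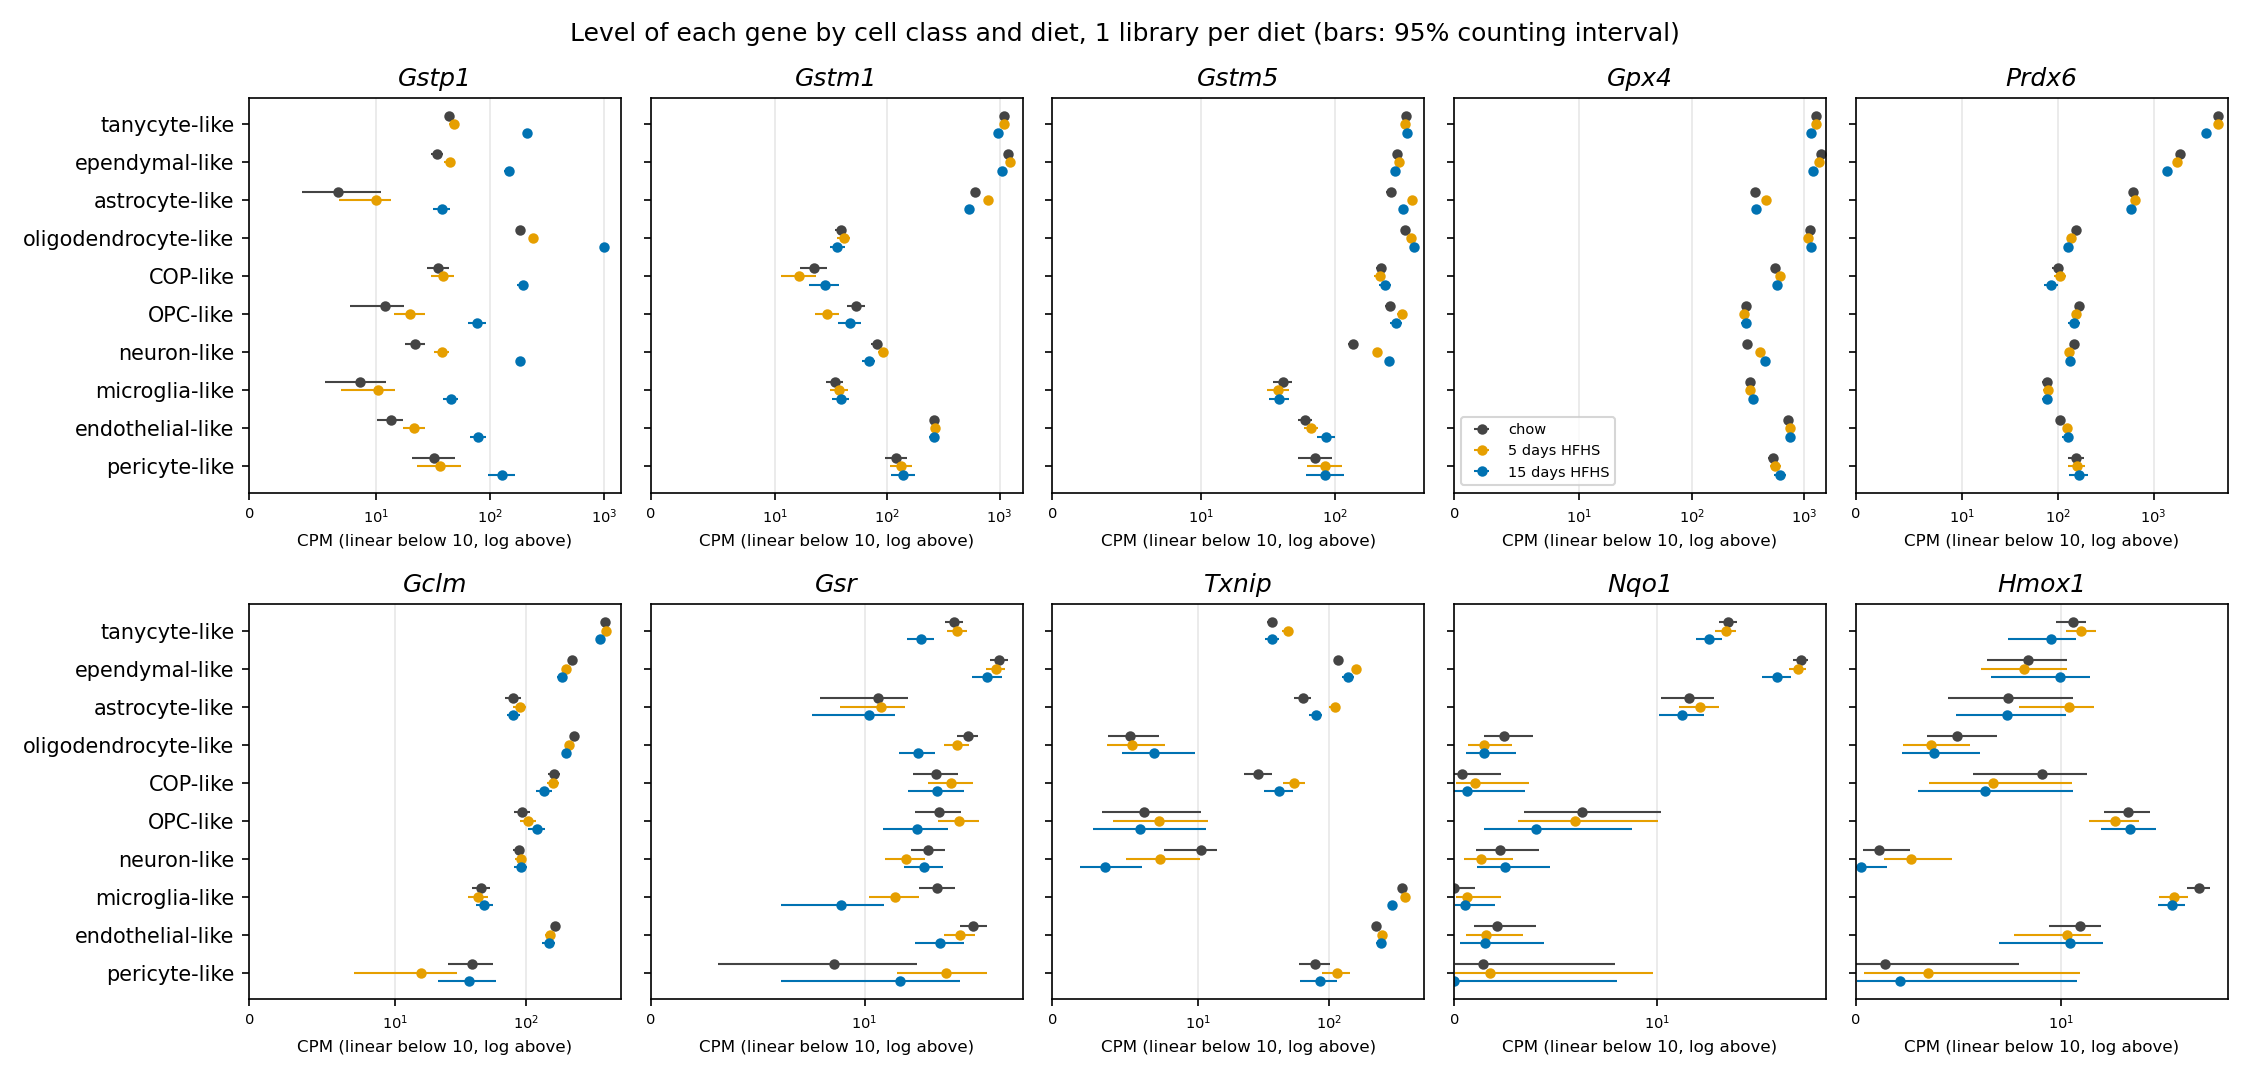
CPM of each of the 10 genes (1 panel each, axis linear below 10 and logarithmic above) in the 10 cell classes, with grey for chow, orange for 5 days and blue for 15 days of HFHS diet and bars for the 95% counting interval. Gstp1 is the gene whose 15-day points lie apart from the other libraries in every class, while classes differ far more than diets for Prdx6, Gstm1 and Txnip.

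Gstp1, a transferase of the pi class (ENSMUSG00000060803, chr19:4035407-4037985, minus strand, GRCm38), was highest in oligodendrocyte-like cells. There it stood at 184 CPM (175 to 195) in SC, 238 (225 to 250) in the 5-day library and 1009 (981 to 1039) in the 15-day library. The 15-day interval lay far above both others, a log2 ratio of 2.45 to SC (2.36 to 2.54). In tanycyte-like cells the levels were 44.0, 48.7 and 213 CPM. In neuron-like cells they were 22.1, 37.9 and 184 CPM, and in astrocyte-like cells, the lowest class, 7.03, 9.99 and 37.9 CPM. The 15-day library was the highest of the 3 in all 10 classes and its interval overlapped no other library's in any of them.

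The mean of the log2 ratio to SC over the 10 classes was 2.43 (2.29 to 2.58), with a range of 1.97 in pericyte-like to 3.06 in neuron-like cells. The 5-day library was also above SC for Gstp1 in 9 of the 9 classes with at least 50 UMIs, by a mean of 0.44 (0.27 to 0.61). Both means share the SC library, and of 8391 genes measured 41.2% had a mean above 0 at 5 days. Of those classes, neuron-like cells met the size rule at 5 days, with a log2 ratio of 0.78 (0.41 to 1.15) that met the rule in 10 of 14 alternatives. It was 0.35 with the clusters of the class weighted alike in every library and 0.044 with cells thinned to 1000 UMIs. In the order of Gstp1 levels by class, all 9 pairs of neighbours overlapped within the spread of the 3 libraries. That spread includes the 15-day difference. Within each library oligodendrocyte-like cells were highest and tanycyte-like cells next among the 10 classes, and the intervals of these classes did not overlap. Over all kept cells Gstp1 stood at 51.9, 62.4 and 279 CPM. With 10% of each class's UMIs taken as free RNA of this makeup and subtracted, the mean 15-day ratio was 2.45, and OPC-like, astrocyte-like and microglia-like cells no longer had the counts the rule asks for.

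Gstp1 was not alone in this pattern. Among 7901 genes measured in at least 7 classes, 13 (0.165%) were at least 1.5 times higher in the 15-day library than in both other libraries in every class measured, and none was lower. Among those with the highest mean log2 ratios to SC were H2ac18, a histone gene, at 4.84, Nme2, a nucleoside diphosphate kinase gene, at 3.93, Gm10076, a noncoding gene, at 3.48, and 1810009A15Rik at 2.71. The mitochondrial gene mt-Atp8 at 2.48 and Gstp1 followed. Lower in the order were Usp50, Grcc10, Bloc1s1, Fam173a, Rpl35 and mt-Nd4l, and these 6 lay between 1.20 and 1.84. None of the other 9 antioxidant genes was in this set. For each of the 13 the mean log2 ratio of 15-day to SC was above that of 15-day to 5-day, so all 13 leaned higher at 5 days than in SC, as Gstp1 did. The 2 means were 4.84 and 4.09 for H2ac18, 3.48 and 2.98 for Gm10076 and 2.43 and 2.02 for Gstp1. They were close for Fam173a, at 1.47 and 1.44.

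Transcript sequence was then compared, since a read that matches more than 1 gene is hard to assign. The last 500 bases of each annotated transcript, which this assay reads, were cut into words of 31 bases, and 12 of the 13 genes shared over 10% of their words with another gene, mt-Atp8 being the exception at 7.47%. Of all 7898 genes measured with a matched transcript, 12.8% did so. With words of 91 bases the figures were 12 of 13 and 6.75%. Gstp1 shared 42.2% of its 31-base words and 30.9% of its 91-base words, with Gstp2 and the pseudogene Gstp-ps. Of the 13 genes, 10 also overlapped exons of another gene on the same strand, and Gstp1, Gm10076 and Rpl35 did not. The share of all measured genes with such an overlap was not computed, so this count cannot be judged as a trait of the set.

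**Figure D2:**
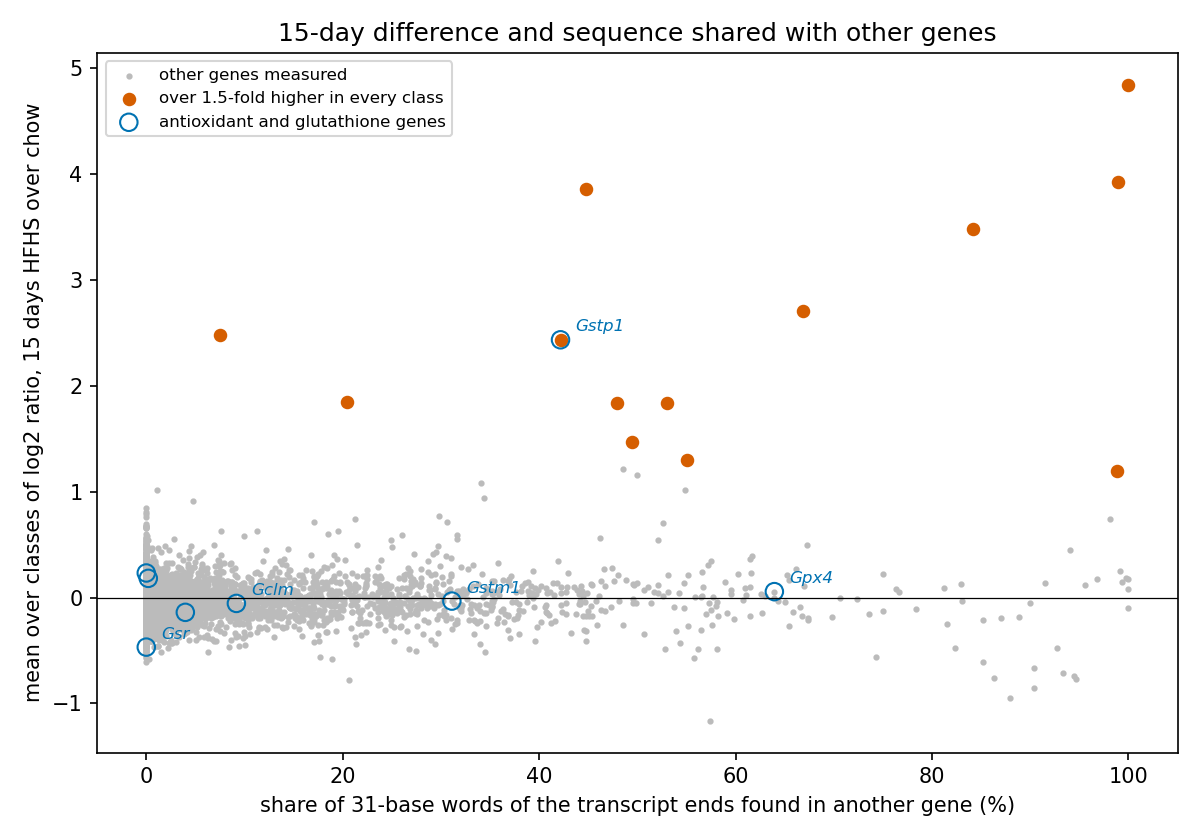
Share of the 31-base words of a gene's transcript ends that occur in another gene (x axis, percent) against the mean over classes of its log2 ratio between the 15-day and SC libraries (y axis), for all genes measured. The 13 genes higher in every class (orange) lie at the top, 12 of them to the right of 10%, and Gpx4 shares 64.0% of its words yet sits near 0. Blue rings mark the antioxidant genes, without Nqo1 and Hmox1, which were measured in under 7 classes.

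The other antioxidant genes differed in how much sequence they shared. Gpx4 shared 64.0% of its 31-base words, with the pseudogene Gpx4-ps2, and its mean log2 ratio was 0.06. Gstm1 shared 31.1% and had a mean ratio of -0.03, and Gclm shared 9.18% and had -0.06. Prdx6 shared 3.98% and Txnip 0.204%, and Gstm5, Nqo1, Hmox1 and Gsr shared none. Among all genes measured, the 533 that shared over 10% of their 91-base words had a median log2 ratio of -0.01, and 25 of them were at least 1.5 times higher and 9 lower on average. The 7365 others had a median of -0.04, with 19 higher and 2 lower, so a difference of this size was more frequent among genes that shared sequence. The 3 libraries listed the same genes, and the pseudogenes Gstp-ps and Gpx4-ps2 were not among them.

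The closest relatives of Gstp1 were near 0 in every library. Gstp2 had 2, 8 and 18 UMIs in oligodendrocyte-like cells, or 0.275, 1.33 and 3.82 CPM, and at most 3 UMIs in any other compared class and library. Gstp3 had no UMI in any compared class but the endothelial-like, where it had 2 in SC. For Gm10076 the partner with the same letters was Rpl41, a ribosomal protein gene. Over all barcodes, Gm10076 stood at 85.6, 113 and 878 CPM and Rpl41 at 2030, 2019 and 1381 CPM, so the first was highest and the second lowest in the 15-day library. For Rpl35, at 283, 313 and 707 CPM, the partner Gm2000 stood at 27.6, 29.2 and 16.0 CPM. The part of read assignment in these values was not tested. The matrix headers give software version 3.1.0 for all 3 libraries. Whether the reference transcripts and settings were also the same is not given in the sources used here, and a difference in either would enter every 15-day ratio of Gstp1. Hence the diet, the mice, the library and its counting cannot be told apart for Gstp1.

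Gstm1, a mu-class transferase known from astrocytes (ENSMUSG00000058135, chr3:108012255-108017973, minus strand), was highest in the ventricular wall and astrocyte-like cells. Ependymal-like cells held 1180, 1237 and 1054 CPM in the SC, 5-day and 15-day libraries. Tanycyte-like cells held 1094, 1092 and 962 CPM. Astrocyte-like cells held 601 CPM (571 to 632) in SC, 782 in the 5-day library and 533 in the 15-day library, highest at 5 days. The lowest class was COP-like, with a mean of 22.1 CPM, 52.3 times below the highest. Of the 9 steps down the order of classes, 6 were larger than the spread of the 3 libraries.

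The only Gstm1 difference past the size rule was in OPC-like cells, at 52.6, 29.2 and 46.3 CPM. In SC, 38.5% of those UMIs came from 1 cell, and without the top cell of each library the log2 ratio of 5-day to SC went from -0.85 to -0.24 and no longer met the rule. It met the rule in 5 of 13 alternative treatments of the data. Over classes the mean log2 ratio was -0.03 in both HFHS libraries.

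Gstm5, another mu-class transferase (ENSMUSG00000004032, chr3:107895821-107898686, plus strand), was spread over glia and neurons. Its mean was 362 CPM in oligodendrocyte-like cells and its lowest was 38.8 CPM in microglia-like cells. Oligodendrocyte-like cells held 333, 367 and 388 CPM and tanycyte-like cells 339, 333 and 344 CPM. Across classes the 5-day library lay above SC by a mean log2 ratio of 0.18 (0.10 to 0.26) and the 15-day library by 0.23 (0.15 to 0.32), against medians of -0.02 and -0.04 over all genes.

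Neuron-like cells carried the largest Gstm5 difference. They held 136 CPM (125 to 147) in SC, 204 (191 to 218) at 5 days and 251 (235 to 268) at 15 days, so the 3 intervals did not overlap. The log2 ratios to SC were 0.59 (0.44 to 0.74) and 0.89 (0.74 to 1.04), both past the rule. The makeup of this class also differed: the cluster led by Npy and Agrp, the appetite-stimulating neuropeptides, had 6, 32 and 32 cells and held 306 CPM of Gstm5 over all libraries, and the largest neuron-like cluster held 104 CPM. With the clusters weighted alike in each library the ratios were 0.17 and 0.50, and neither met the rule. The 5-day difference met the rule in 7 of 14 alternatives and the 15-day difference in 11. Oligodendrocyte markers in neuron-like cells summed to 716, 271 and 316 CPM, and their part in the result was not tested.

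The other mu-class genes had their own classes. Gstm7 was highest in oligodendrocyte-like cells, at 157, 142 and 124 CPM, and endothelial-like cells, at 130, 107 and 104 CPM. Gstm6 stood at 57.7, 64.4 and 60.8 CPM in neuron-like cells and at 38.1, 40.2 and 36.4 CPM in tanycyte-like cells. Gstm4 was near 10 CPM in tanycyte-like cells, at 10.2, 9.98 and 10.1. Gstm2 reached 15.2, 20.1 and 24.2 CPM in endothelial-like cells. Gstm3 had at most 3 UMIs in any compared class.

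**Figure D3:**
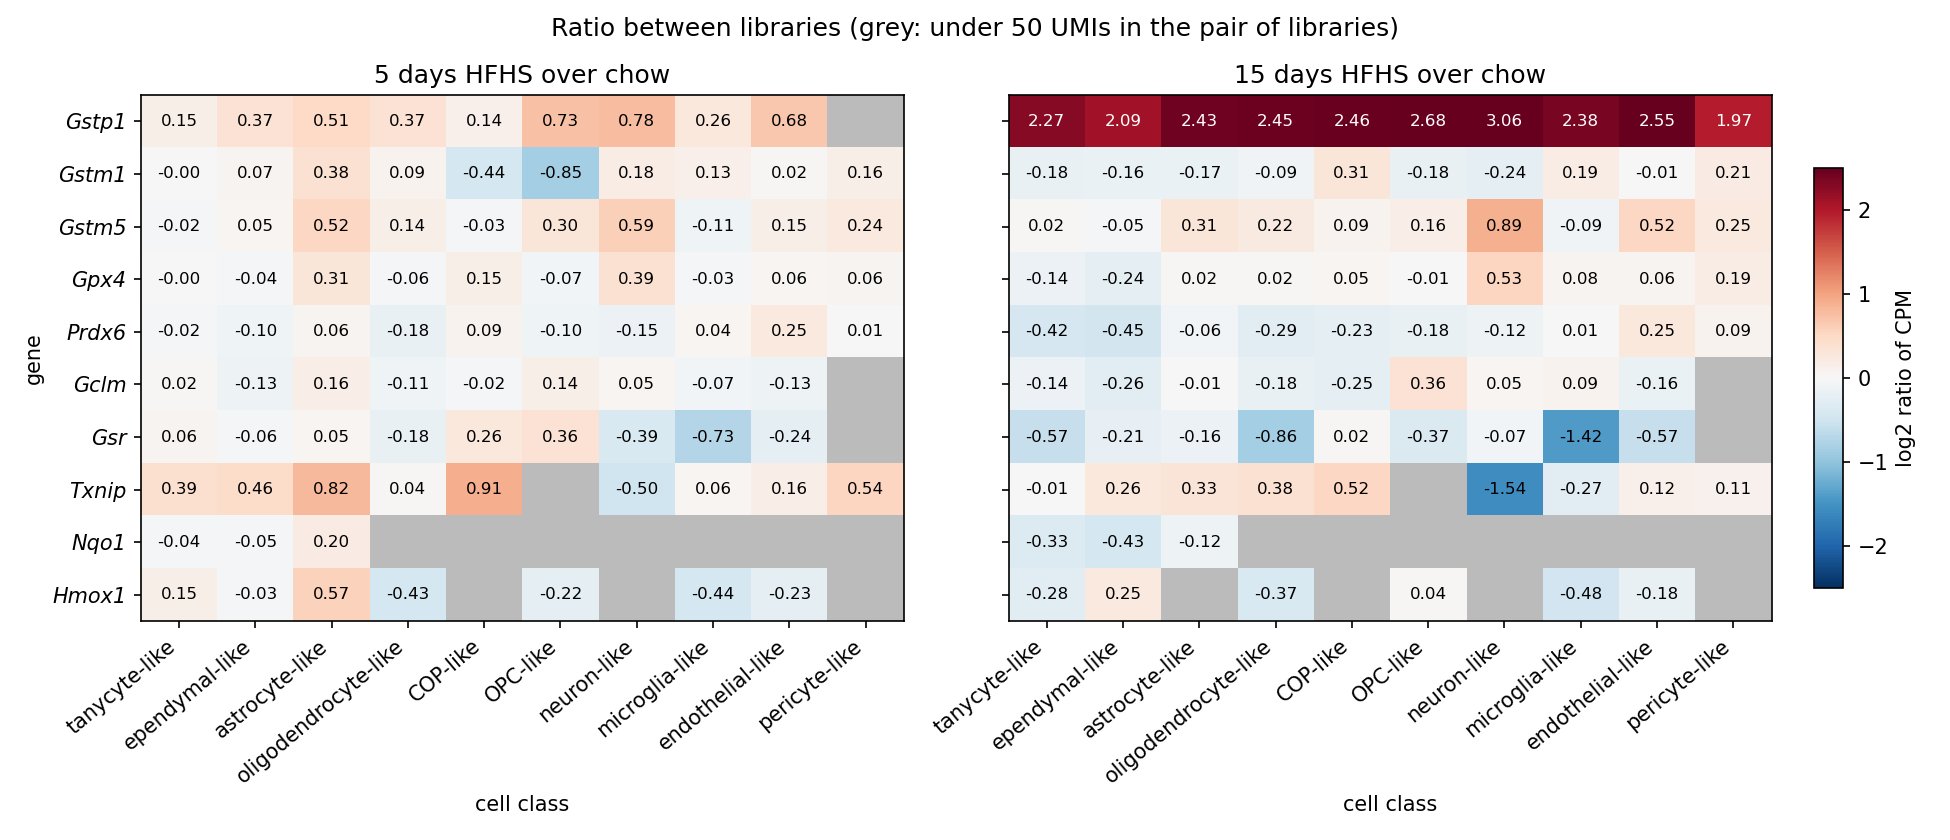
Log2 ratio of CPM between the 5-day and SC libraries (left) and the 15-day and SC libraries (right) for each gene (rows) and class (columns), red for higher and blue for lower, grey under 50 UMIs in the pair of libraries. The Gstp1 row at 15 days runs from 1.97 to 3.06, and the other rows are mostly within 0.5 of 0.

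Gpx4, the peroxidase that reduces lipid hydroperoxides within membranes and so protects cells from ferroptosis (ENSMUSG00000075706, chr10:80047166-80056439, plus strand), was high in every class. Ependymal-like cells held 1400, 1364 and 1186 CPM, tanycyte-like cells 1265, 1261 and 1144 CPM and oligodendrocyte-like cells 1131, 1088 and 1149 CPM. OPC-like cells were lowest, at 302, 289 and 301 CPM, 4.43 times below the ependymal-like mean. No Gpx4 difference from SC met the size rule. In neuron-like cells the levels were 310, 406 and 446 CPM, with a log2 ratio of 0.53 (0.42 to 0.63) at 15 days that was 0.11 with the clusters weighted alike. That difference met the rule in 3 of 14 alternatives, both other scalings and the free RNA subtraction, where it was 0.73, 0.73 and 0.74.

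Prdx6, which reduces peroxides and phospholipid hydroperoxides and also acts as a phospholipase (ENSMUSG00000026701, chr1:161240112-161251219, minus strand), marked tanycyte-like cells. They held 4754 CPM (4716 to 4792) in SC, 4682 (4638 to 4726) at 5 days and 3554 (3511 to 3597) at 15 days. Ependymal-like cells held 1875, 1750 and 1372 CPM. Astrocyte-like cells, the third class in the order, held 612, 637 and 587 CPM, and microglia-like cells, the lowest, 76.9, 79.3 and 77.4 CPM. Tanycyte-like exceeded ependymal-like, ependymal-like exceeded astrocyte-like and astrocyte-like exceeded pericyte-like cells by more than the spread of the libraries.

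The 15-day library was the lowest for Prdx6 in both ventricular classes, and its intervals lay below those of the other libraries. The log2 ratios to SC were -0.42 (-0.44 to -0.40) in tanycyte-like and -0.45 (-0.50 to -0.40) in ependymal-like cells, under the 1.5-fold of the size rule. Over 14 alternative treatments of the data the first ranged from -0.45 to -0.34 and the second from -0.46 to -0.22. In ependymal-like cells the 13 tanycyte markers summed to 1130, 1017 and 804 CPM, lowest at 15 days like Prdx6, and the 14 ependymal markers to 10380, 11827 and 12324 CPM. In tanycyte-like cells the tanycyte markers summed to 3869, 3811 and 3677 CPM. The part of these markers in the Prdx6 values was not tested. Within ependymal-like cells the cluster with most cells was not the same in each library: 1 cluster had 320, 261 and 141 cells and the other 214, 176 and 149. Prdx6 was not lower in all classes, since endothelial-like cells held 106, 126 and 126 CPM. The red blood cell markers of that class differed between libraries, as given above, and their part was not tested.

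Gclm, the modifier subunit of the enzyme that makes the first bond of glutathione (ENSMUSG00000028124, chr3:122245557-122270732, plus strand), was highest in tanycyte-like cells. They held 403 CPM (392 to 414) in SC, 409 (396 to 422) at 5 days and 365 (352 to 379) at 15 days. Oligodendrocyte-like cells followed with 231, 214 and 203 CPM and ependymal-like cells with 222, 203 and 186 CPM. These neighbours overlapped within the spread of the libraries, and both exceeded endothelial-like cells, at 167, 152 and 149 CPM. Pericyte-like cells were lowest, with a mean of 30.4 CPM. No Gclm difference met the rule, and the mean log2 ratios to SC were -0.01 (-0.08 to 0.06) and -0.06 (-0.13 to 0.02).

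Gsr, the reductase that restores reduced glutathione with NADPH (ENSMUSG00000031584, chr8:33652523-33698163, plus strand), was low, from a mean of 47.1 CPM in ependymal-like to 11.4 in astrocyte-like cells. In oligodendrocyte-like cells it stood at 34.2 CPM (30.1 to 38.8) in SC, 30.2 (26.0 to 34.9) at 5 days and 18.9 (15.2 to 23.2) at 15 days. The 15-day interval lay below both others, which overlapped each other. The log2 ratio of 15-day to SC was -0.86 (-1.23 to -0.50), and the difference met the rule in 13 of 14 alternatives.

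Other classes went the same way for Gsr. Tanycyte-like cells held 29.1, 30.4 and 19.6 CPM, a ratio of -0.57 (-0.86 to -0.29) that met the rule in 3 of 14 alternatives. Microglia-like cells held 23.9, 14.4 and 8.91 CPM, a ratio of -1.42 (-2.06 to -0.82), and stayed outside the rule because no library reached 30 CPM. Gsr was lower at 15 days in 8 of 9 classes, COP-like cells at 23.5, 28.2 and 23.9 CPM being the exception. The mean log2 ratio was -0.47 (-0.64 to -0.30), at the 0.575 percentile of 8167 genes, and that of the 5-day library was -0.10 (-0.24 to 0.05). With every cell thinned to 1000 UMIs the 15-day mean was 0.08, from few molecules: oligodendrocyte-like cells then held 16 and 11 UMIs and tanycyte-like cells 18 and 15.

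Txnip, the inhibitor of thioredoxin and a brake on glucose uptake whose transcription follows glucose (ENSMUSG00000038393, chr3:96557957-96561883, plus strand), was highest in microglia-like and endothelial-like cells among the 10 classes. Microglia-like cells held 361, 376 and 299 CPM and endothelial-like cells 228, 255 and 248 CPM. The small macrophage-like class held 672, 802 and 461 CPM, from 121, 94 and 108 UMIs. Oligodendrocyte-like cells were lowest, at 5.36, 5.50 and 7.0 CPM, 58.0 times below microglia-like cells. Microglia-like exceeded endothelial-like, and endothelial-like exceeded ependymal-like cells, by more than the spread of the libraries.

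At 5 days Txnip was above SC in 8 of 9 classes, neuron-like cells being the exception, with a mean log2 ratio of 0.32 (0.19 to 0.46), at the 99.7 percentile of 8391 genes. Beside the astrocyte-like cells, which met the size rule in all 14 alternatives (range 0.72 to 0.94), COP-like cells met it at 28.9, 54.4 and 41.5 CPM. In astrocyte-like cells the 5 red blood cell markers summed to 69.2, 672 and 56.6 CPM, highest at 5 days like Txnip, and the 12 astrocyte markers to 24774, 25289 and 24756 CPM; the part of the former was not tested. That COP-like ratio of 0.91 (0.46 to 1.37) met the rule in 9 of 14 alternatives. It was 0.26 with at least 1000 genes per barcode, 0.25 with at most 10% mitochondrial UMIs, and -0.42, from 4 and 2 UMIs, with cells thinned to 1000 UMIs. The 14 microglia markers summed to 56.1, 352 and 61.0 CPM in COP-like cells and the 9 pericyte markers to 13.6, 127 and 10.7 CPM, highest at 5 days like Txnip, and their part in the result was not tested. Ependymal-like cells held 116, 160 and 139 CPM, a ratio of 0.46 (0.33 to 0.59), pericyte-like cells 78.4, 114 and 84.6 CPM and tanycyte-like cells 36.9, 48.4 and 36.7 CPM. In ependymal-like cells the 5-day and SC intervals did not overlap, and neither did they in tanycyte-like cells.

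At 15 days the mean log2 ratio of Txnip to SC was -0.01 (-0.17 to 0.15), with 6 of 9 classes higher and neuron-like cells far below the rest at -1.54. Microglia-like cells were lowest at 15 days, 299 CPM (282 to 318) against 361 (342 to 381) in SC, a ratio of -0.27 (-0.39 to -0.15). Neuron-like cells held 10.5, 7.40 and 3.59 CPM, from 46, 33 and 13 UMIs, and the 15-day ratio of -1.54 ranged from -2.65 to -0.25 over 12 alternatives. Microglia markers in neuron-like cells summed to 236, 90.1 and 111 CPM and endothelial markers to 327, 311 and 130 CPM, and their part in the neuron-like values was not tested.

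Nqo1, a quinone reductase (ENSMUSG00000003849, chr8:107388225-107403206, minus strand), had enough UMIs for a ratio in ependymal-like, tanycyte-like and astrocyte-like cells alone. Ependymal-like cells held 60.8, 58.5 and 45.0 CPM, tanycyte-like cells 24.3, 23.6 and 19.3 CPM and astrocyte-like cells 14.8, 17.1 and 13.7 CPM. Microglia-like cells had 0, 2 and 2 UMIs, and the 0 in SC allows up to 0.824 CPM at 3 UMIs. The 4 highest classes were each separated from the next by more than the spread of the libraries. In all 3 classes with enough counts the 15-day library was below SC, by a mean log2 ratio of -0.29 (-0.54 to -0.05), and none met the rule.

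Hmox1, which breaks down heme (ENSMUSG00000005413, chr8:75093621-75100589, plus strand), was highest in microglia-like cells at 55.2 CPM (47.9 to 63.4) in SC, 40.6 (33.8 to 48.3) at 5 days and 39.5 (33.3 to 46.6) at 15 days. SC was highest, its interval overlapped that of the 5-day library, and 9.95% of its UMIs came from 1 cell. The log2 ratio of 15-day to SC was -0.48 (-0.80 to -0.16), or -0.38 without the top cell of each library, and it did not meet the rule. OPC-like cells followed at 22.9, 19.6 and 23.5 CPM. Neuron-like cells were lowest, with 5, 12 and 1 UMIs. The macrophage-like class held 144, 68.2 and 93.9 CPM, from 26, 8 and 22 UMIs.

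Clusters within a class also differed. Among tanycyte-like clusters, the cluster with Rax and Crym among its leading genes held 4879 CPM of Prdx6 over all libraries (4851 to 4907), and the cluster led by Rmst and Slit2 held 1890 (1840 to 1942). Gclm followed the same order, at 433 and 244 CPM, and Txnip the opposite order, at 29.6 and 78.4 CPM. The left-out cluster with ependymal and tanycyte markers held 4731 CPM of Prdx6, which was itself among the leading genes of that cluster.

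Among oligodendrocyte-like clusters, the cluster led by Klk6 and Apod held 81.2 CPM of Gstp1 (69.1 to 94.9), and the cluster led by Mal and Tspan2 held 630 (611 to 650). By library, the former held 41.6, 55.5 and 190 CPM and the latter 264, 300 and 1376, so the order was the same in each library. Gstm5 ran the other way, at 692 and 259 CPM. Among COP-like clusters, the cluster led by Gpr17 held 41.3 CPM of Gclm and the more oligodendrocyte-like cluster with Mag and Mbp held 250. The genes used for clustering could include the members, so these differences are a description. With all antioxidant genes left out before clustering, the mean Gstp1 ratio of 15-day to SC was 2.42.

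Microglia-like clusters differed in Hmox1. The cluster led by Junb and Ccl4, genes that tissue digestion is known to induce, held 60.9 CPM (54.4 to 67.9), and the cluster led by P2ry12 and Cx3cr1 held 30.2 (25.1 to 36.1). Txnip stood at 328 and 426 CPM in the same order. The first cluster had 141, 112 and 242 cells by library. The cluster with most microglia-like cells was led by P2ry12 and Cx3cr1 in the SC and 15-day libraries and by Tyrobp in the 5-day library.

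**Figure D4:**
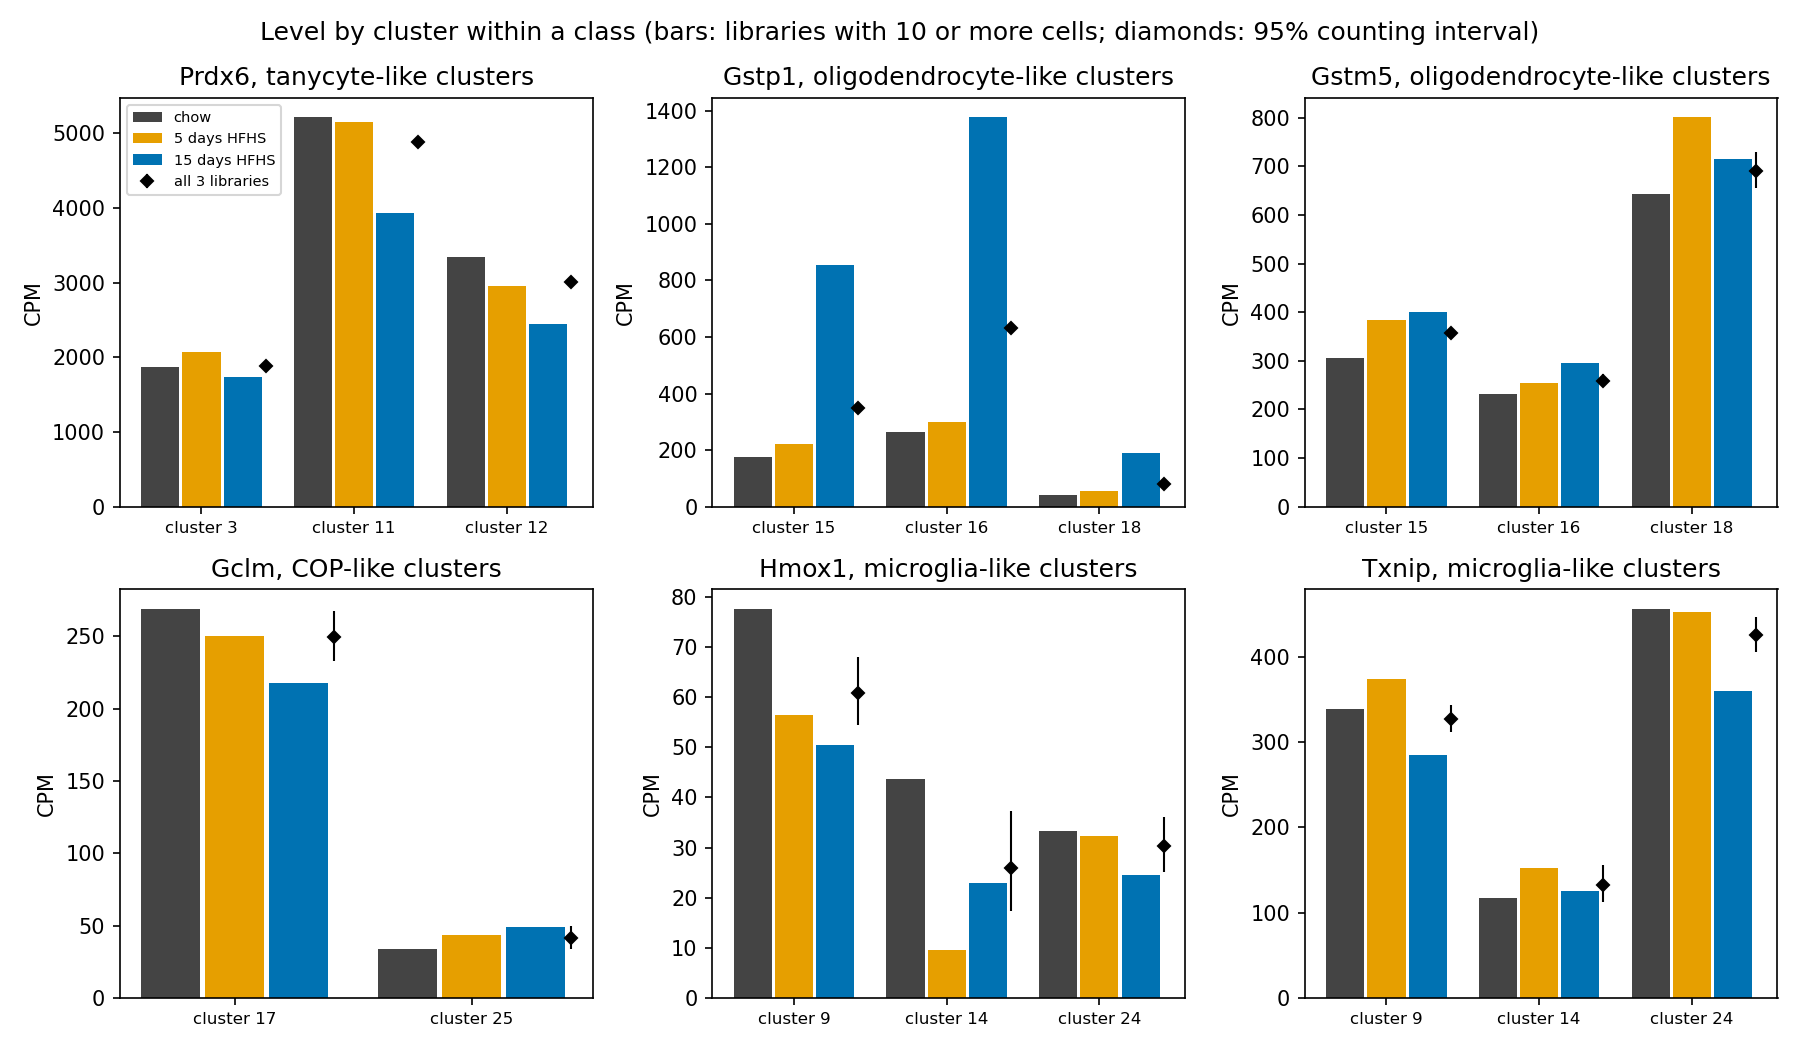
CPM of a gene in the clusters of a class, with grey, orange and blue bars for chow, 5 days and 15 days of HFHS diet (libraries with at least 10 cells) and black diamonds for all libraries with their 95% counting interval. Prdx6 is 4879 CPM in tanycyte-like cluster 11 and 1890 in cluster 3, and Gclm is 250 CPM in COP-like cluster 17 and 41.3 in cluster 25.

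Over all genes measured, 41.2% had a mean ratio above 0 at 5 days and 37.9% at 15 days. Of 12 measured genes of glutathione synthesis and turnover, 4 had a mean ratio above 0 at 5 days and 2 at 15 days, with medians of -0.03 and -0.18 (log2) beside -0.02 and -0.04 for all genes. Of 28 measured genes of the NRF2 pathway, 13 were above 0 at 5 days and 7 at 15 days, with medians of -0.0049 and -0.05. Of the 5 superoxide and catalase genes, all 5 lay above 0 at 5 days, with a median of 0.09, and 2 at 15 days. Glutathione transferases numbered 15 of 19 above 0 at 5 days and 9 of 19 at 15 days. These lists share members with the 10 genes, and were chosen with results of these data known. By the size rule the NRF2 list had 1 higher and no lower of 157 pairs at 5 days and none higher and 2 lower of 153 at 15 days.

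The remaining lists are read against the same shares of 41.2% and 37.9%. Peroxiredoxins were above 0 for 5 of 6 genes at 5 days and 2 of 6 at 15 days, glutathione peroxidases for 4 of 5 and 3 of 5, and the thioredoxin and glutaredoxin genes for 11 of 16 and 8 of 16. Heme breakdown genes were above 0 for 3 of 7 and 2 of 7, lipid peroxide defence genes for 5 of 14 and 7 of 14, and genes around Txnip regulation for 4 of 8 and 3 of 8. From the last list Sgk1, a glucocorticoid-induced kinase, met the rule as lower at 15 days in 2 classes, at 406, 275 and 235 CPM in COP-like and 367, 331 and 238 CPM in microglia-like cells. In oligodendrocyte-like cells it stood at 415, 724 and 415 CPM and met the rule as higher at 5 days.

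Genes that dissociation induces differed between the libraries too. Of 17 such genes, 10 had a mean ratio above 0 at 5 days and 5 at 15 days, and by the size rule 5 pairs were higher and 5 lower of 95 at 5 days, against 0.664% and 0.779% of all pairs. At 15 days 7 were higher and 12 lower of 92, against 1.69% and 2.14%. Fos, an immediate early gene, stood at 181, 61.4 and 521 CPM in pericyte-like, 18.7, 49.3 and 50.9 in neuron-like and 59.3, 38.4 and 28.0 in ependymal-like cells. The heat shock gene Hspa1a was lowest at 15 days in tanycyte-like cells, at 51.0, 49.7 and 27.2 CPM, and in oligodendrocyte-like cells, at 31.1, 25.5 and 18.9 CPM. Hspa1b, its copy, held 62.6, 41.4 and 34.6 CPM in oligodendrocyte-like cells. The part of dissociation in the values above was not tested.

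Genes with the most similar class pattern were ranked by Pearson's r of log2(CPM + 10) over the 10 class means among 10647 genes, as a description over points that share libraries and depth. Nqo1 was nearest to genes of cilia, Tekt4 (0.99), Cfap100 (0.99) and Ccdc173 (0.98). Prdx6 was nearest to Ccdc114 (0.98), Ppp1r1b (0.97) and Col23a1 (0.97), and Gstm1 to Fam189a2 (0.96), Steap3 (0.96) and Ccdc157 (0.95). Gpx4 was nearest to another peroxidase gene, Prdx1 (0.91), with Mcee (0.90) and H2ac18 (0.89), the last 1 of the 13 genes above. Txnip was nearest to H2-K1 (0.93), Trim12c (0.91) and Ubtd1 (0.90). Gstm5 was nearest to Gpm6b (0.95), Sqle (0.93) and 3110021N24Rik (0.93), and Hmox1 to Abhd17c (0.96), Tpbgl (0.91) and Rin2 (0.89). For Gstp1 the nearest were Arl2 (0.92), Carns1 (0.90) and Dnajb2 (0.89), for Gsr Hsp90ab1 (0.92), Mrpl39 (0.92) and Commd1 (0.88), and for Gclm Add3 (0.87), Fam204a (0.86) and Ccdc167 (0.85).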

How the data were processed

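The deposited values are raw UMI counts per gene and barcode from 3 single-cell libraries (10x 3′ v3.1), 1 per diet, each from 6 pooled mice. The submitters' processing notes name Cell Ranger, GRCm38, SAMtools and Scanpy 1.4.4, and the matrix headers give software version 3.1.0; which settings were used is not given in the sources used here. The libraries held 59315940, 52735770 and 43193012 UMIs (SC, 5-day, 15-day).

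Cells were barcodes that had 500 or more genes and no more than 20% of their UMIs from mitochondria. The barcodes with the highest Scrublet scores were removed as doublets (0.8% per 1000 barcodes; 291, 211 and 344). Cells were clustered in Scanpy 1.11.5 (total of 10000 per cell, 3000 variable genes, 40 components, 15 neighbours, Leiden resolution 1), and clusters were named from 17 marker sets. Sums of UMIs over each class and library were compared as ratios with exact 95% intervals; a ratio needed 50 UMIs to enter a mean over classes. With 1 library per diet no test was made. The scripts were tested on simulated data. Genes outside the 10 were named by rule: up to 5 per direction among those past 1.5-fold in every class, the 3 most alike by class pattern, and list genes past the size rule the same way in 2 or more classes; the other genes named were chosen after their values were seen, and 1 gene that the rule names is not reported here. The members and the 12 lists were chosen with earlier results of these data known. Word sharing used GENCODE M21 transcripts and promoters used RefSeq. Alternatives covered scaling (edgeR 4.0.16 factors), depth, cell weights, filters, doublets, free RNA, cluster resolution and mix, genes clustered on, and shared barcodes, the last chosen after the data were seen.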

Additional observations from a re-analysis of the deposited data

How the results depend on the processing

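The mean Gstp1 ratio at 15 days, the counts past the size rule and the 19 other mean ratios (10 genes at 5 days and 9 at 15 days) were recomputed under 14 alternatives. Of the recomputed values of those 19, 231 stayed within the spread of the main value, 34 moved and 1 reversed. The mean Gstp1 ratio at 15 days ranged from 2.32, with every cell given equal weight, to 2.48, with median-of-ratios scaling. The count of pairs of member and class past the size rule at 5 days was 5 in the main analysis. It was 1 with cells thinned to 1000 UMIs, 2 with at least 1000 genes and 2 with at least 250 genes. With at most 10% mitochondrial UMIs it was 2, and with no doublets removed 3. A fixed mix of clusters gave 3, and equal weight for every cell gave 8. At 15 days the count of 11 pairs became 2 in thinned cells, where few UMIs are left to meet the minimum of 100. The mean Gsr ratio at 15 days turned from -0.47 to 0.081 in thinned cells; the cause was not tested. No paired analysis was possible because each diet has 1 library, and for the same reason no replicate could be left out. Intervals cover counting error only.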

Other observations

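The small vascular leptomeningeal-like class (11, 18 and 60 cells in SC, 5-day and 15-day), led by the matrix genes Dcn and Mgp, is described here after its values were seen. Its own 12 markers summed to 30841, 29431 and 37276 CPM, but the 16 oligodendrocyte markers summed to 41446, 32848 and 10368 CPM and the 9 pericyte markers to 3199, 6191 and 1167 CPM, both lowest at 15 days. The part of these markers in the values that follow was not tested. Gstm1 stood at 935 CPM (737 to 1170) in SC, 722 (574 to 896) at 5 days and 381 (316 to 455) at 15 days, and 30.3% of the SC UMIs came from 1 cell. Gstm2, another mu-class transferase, stood at 209, 132 and 99.9 CPM, from 17, 15 and 32 UMIs. Txnip stood at 123, 264 and 325 CPM, from 10, 30 and 104 UMIs, and its SC and 15-day intervals did not overlap. In macrophage-like cells (37, 21 and 49 cells) Gsr stood at 133, 17.1 and 29.9 CPM, and 41.7% of the SC UMIs came from 1 cell.

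Some unnamed clusters came from the 15-day library alone or nearly so, and they enter no comparison. A cluster of 44 cells with Tac2 and Sst among its leading genes held 806 CPM of Gstp1 (748 to 867), and one of 36 cells with Ptgds and Tagln held 865 (739 to 1010). Gstp1 and Gm10076 were themselves among the leading genes of both. Leading genes were ranked after clustering, so they do not show what formed a cluster. With all antioxidant genes left out before clustering, clusters of 44 and 36 cells from the 15-day library with the same leading genes were found again. A cluster of 26 cells, 24 of them from the 15-day library and led by Plvap, a gene of fenestrated endothelium, held 745 CPM of Txnip (595 to 921). A cluster of 12 cells with Chga and Cga, genes of endocrine cells, held 561 CPM of Txnip (475 to 658).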
